A study of Danio rerio with 11 samples.

Results

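The gene described here is znf706 (ENSDARG00000056307), the gene mutated in the study. It was found as the only entry of the deposited expression table with the name znf706, 1 of the 31952 gene IDs kept. The choice used no measured value. Messenger RNA was sequenced from zebrafish oocytes in 8 libraries that form 4 groups of 2: stage I and stage II oocytes, each from wild-type (WT) and from mutant fish. The mutants carry the CRISPR/Cas9 allele znf706(tsu7d/tsu7d) and have the genotype label MZznf706, a prefix that usually stands for maternal-zygotic. All fish were females aged 3 months, and all libraries came from ovaries digested with an enzyme buffer, with about 600 stage I or 150 stage II oocytes picked by hand for each library. The text of the series calls the libraries biological replicates, but does not say how many fish gave each one. It does not say where in the gene the allele lies, so the RNA level below is no test of the genotype labels. The 3 CUT&Tag libraries of the series, made from WT oocytes with an IgG control or with antibody to Znf706, were not used here.

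As background, znf706 encodes a small protein with a C2H2-type zinc finger, a fold held by zinc that often binds nucleic acid. Its amino-terminal part resembles the SERF proteins, small charged proteins known for promoting amyloid formation in other organisms. In mouse embryonic stem cells the orthologous gene is known for promoting the exit from self-renewal and for holding down Klf4. Stage I zebrafish oocytes build the Balbiani body, the organelle aggregate that carries germ plasm, the maternal material that specifies germ cells. Stage II oocytes disperse it and form cortical alveoli.

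The transcript was abundant in all libraries, whatever the genotype. Levels are in FPKM, fragment numbers scaled to transcript length and to the mapped fragments of a library, so that genes can be compared per length. WT stage I libraries held 232 and 238 FPKM of znf706 and mutant stage I libraries 181 and 147 FPKM. WT stage II libraries held 158 and 143 FPKM and mutant stage II libraries 129 and 142 FPKM. Both WT stage I libraries stood above the other 6, and the highest mutant stage II library was just under the lowest WT stage II library.

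Ranked by FPKM among the 31952 gene IDs, znf706 held place 553 in both WT stage I libraries. It held places 727 and 894 in mutant stage I libraries, 760 and 841 in WT stage II libraries, and 940 and 866 in mutant stage II libraries. Counted only against genes at 1 FPKM or more in the same library, 4.48% and 4.60% stood above it in WT stage I oocytes, and 5.94% to 7.48% in the other 6 libraries. Its level was 16.5 and 17.6 times the median of those genes in WT stage I libraries, 14.5 and 11.3 times in mutant stage I libraries, and 7.45 to 9.65 times at stage II. The mutant transcript was thus exceeded by at most 7.48% of expressed genes in any library.

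**Figure D1:**
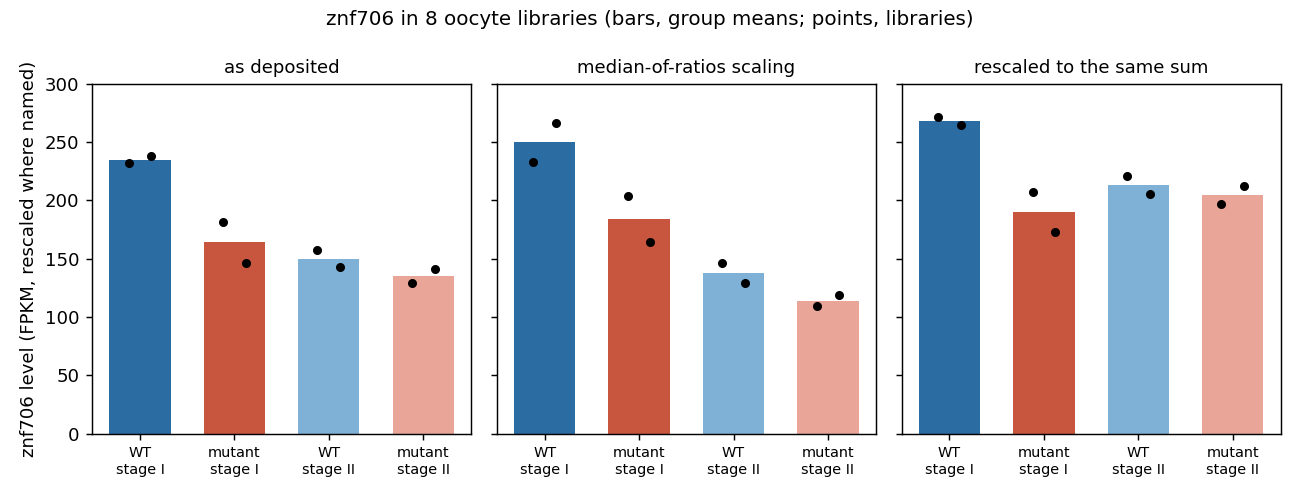
Level of znf706 by genotype and stage, with bars for group means and points for the 2 libraries of a group. The panels show deposited FPKM, FPKM after median-of-ratios scaling, and FPKM after rescaling each library to the same sum. WT stage I oocytes were highest in all 3, with a deposited mean of 235 FPKM. The order of the other groups was the same for deposited and median-of-ratios values and differed after rescaling to the same sum.

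At stage I znf706 was lower in mutants. The WT mean was 235 ± 4.39 FPKM and the mutant mean 164 ± 24.4 FPKM (SD, n = 2 each), so that the mutant mean was 69.8% of the WT mean. Each mutant library set against each WT library gave 61.7% to 78.2%. On the log2(FPKM + 1) scale, which slightly understates changes, it fell by 0.52 ± 0.11 (SE; 95% interval -0.77 to -0.27; limma with Benjamini-Hochberg adjustment, adjusted p = 0.0056). This call has to be read against a broad response: 45.3% of the 13862 genes tested passed the same threshold at stage I, and 26.9% passed it as lower. The 2 groups did not overlap, which held for 42.3% of tested genes in the lower direction. A larger log2 difference in either direction was found for 4861 tested genes (35.1%), so the change of znf706 was moderate for these libraries. Fewer molecules per oocyte and fewer oocytes with the transcript cannot be told apart in RNA from pooled oocytes.

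In znf706 the mutant stage I libraries differed from each other more than the libraries of any other group. The SD of znf706 on the log2 scale was 0.214 between them, against 0.0269, 0.0999 and 0.0951 in WT stage I, WT stage II and mutant stage II oocytes. Of the tested genes, 84% had a smaller SD than znf706 in mutant stage I libraries, where the median gene had 0.0939, and 14.1% had a smaller one in WT stage I libraries. The log2 difference at stage I was -0.67 without mutant replicate 1 and -0.37 without mutant replicate 2, and passed the threshold in both cases (adjusted p = 0.0034 and adjusted p = 0.028).

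At stage II no difference was shown. The WT mean was 150.1 ± 10.5 FPKM and the mutant mean 135 ± 8.98 FPKM, 90.0% of it, with library pairs from 81.8% to 99.2%. The log2 difference was -0.15 ± 0.11 (95% interval -0.40 to 0.10, limma adjusted p = 0.29). The interval includes no change and also a fall of 0.40 on the log2 scale (-0.40), not far from the one at stage I. At this stage 44.6% of tested genes passed the threshold and 19.2% passed it as lower. The groups did not overlap, by a margin from 142.7 to 141.5 FPKM, and 32.4% of tested genes had separate groups in this direction.

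The direct comparison of both genotype effects gave an interaction of 0.37 ± 0.15 (95% interval 0.02 to 0.73, limma adjusted p = 0.091), which missed the threshold after adjustment. It passed in 36.4% of tested genes. It rested on the mutant stage I libraries: 0.52 without replicate 1 (adjusted p = 0.024) and 0.22 without replicate 2 (adjusted p = 0.23).

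In WT oocytes znf706 fell between the stages. The mean went from 235 ± 4.39 to 150.1 ± 10.5 FPKM, 64.0% of the stage I level, and every library pair lay between 60.0% and 68.0%. The log2 difference was -0.64 ± 0.11 (95% interval -0.89 to -0.39, limma adjusted p = 0.0013). The background was again large, with 60.3% of tested genes passing the threshold and 22.2% passing it as lower. Separate groups in the lower direction were found for 31.1%. Only 2042 genes (14.7%) had a lower log2 difference than znf706. In the deposited values most genes were higher at stage II, with a median of 0.15. That median was -0.0094 after median-of-ratios scaling and 0.42 after rescaling to the same sum.

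In mutant oocytes the fall between the stages was smaller and missed the threshold. The mean went from 164 ± 24.4 to 135 ± 8.98 FPKM, 82.5% of the stage I level, with library pairs from 71.1% to 96.5%. The log2 difference was -0.27 ± 0.11 (95% interval -0.52 to -0.02, limma adjusted p = 0.056), while 66% of tested genes passed and 18.7% passed as lower. Without mutant stage I replicate 2 it was -0.42 and passed (adjusted p = 0.0097), and without replicate 1 it was -0.12 (adjusted p = 0.33). The test that this fall differed from that in WT is the same interaction as above.

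In the order of group means, WT stage I was followed by mutant stage I, WT stage II and mutant stage II. The first step down passed the threshold. The second, from mutant stage I to WT stage II, did not: the log2 difference was 0.12 ± 0.11 (95% interval -0.13 to 0.37, limma adjusted p = 0.35), with overlapping libraries. Without mutant stage I replicate 2 it was 0.27 and passed (adjusted p = 0.047). In that comparison 66.4% of tested genes passed. The last step, between the genotypes at stage II, did not pass either.

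**Figure D2:**
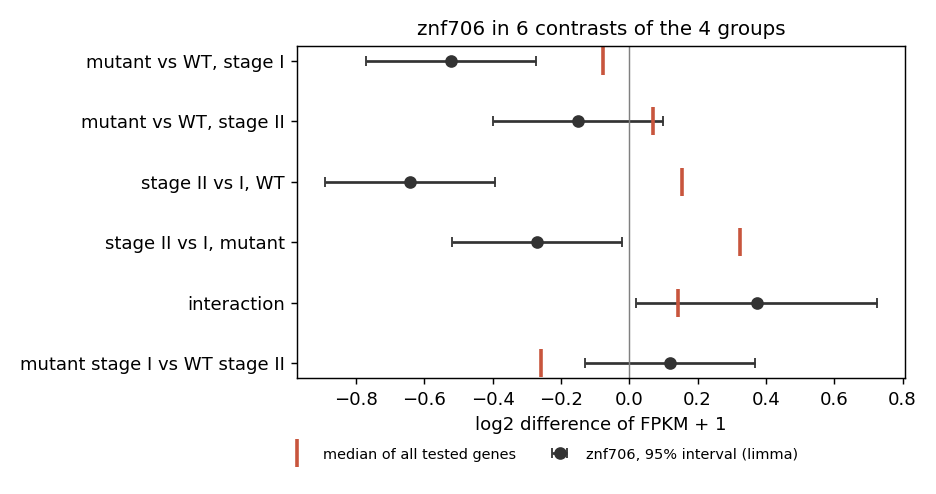
Differences of znf706 between groups on the log2(FPKM + 1) scale (horizontal axis) in 6 contrasts, as points with 95% intervals from limma, and the median of all 13862 tested genes as red ticks. The intervals for mutant against WT at stage I and for stage II against stage I lie below 0, the last of these in mutants only just, at -0.02. The median of all genes lies at 0.15 and 0.32 for the stage contrasts.

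The fall of znf706 at stage I passed the threshold under each scaling of the libraries tried. The changes between stages differed between the scalings in size and partly in sign. Median-of-ratios scaling, which equates the typical gene, put znf706 at 233 and 267 in WT stage I, 204 and 165 in mutant stage I, 147 and 129 in WT stage II, and 110 and 119 in mutant stage II libraries. Rescaling each library to the same summed FPKM gave 271 and 264, 207 and 173, 221 and 206, and 197 and 212 in the same order. The genotype difference of znf706 at stage I was -0.44 and -0.50 in these settings, against -0.52 as deposited. The stage difference in WT was -0.85 and -0.33, against -0.64. In mutants it was -0.68, which passed the threshold (adjusted p = 0.0024), and 0.11, of the other sign, which did not (adjusted p = 0.32). The direction of calls over all tested genes moved with the scaling too. Of the calls between genotypes at stage I, 40.6% were higher in mutants in the deposited values, 48.5% when the typical gene was equated and 42.85% at the same sum. At stage II 57.0% were higher in the deposited values, and 45.05% and 66.2% in the other settings. In the same order, for stage II against stage I the shares were 63.2%, 50.2% and 79.2% in WT and 71.6%, 48.9% and 84.8% in mutants, and for the interaction 64.2%, 47.7% and 68.9%. For mutant stage I against WT stage II they were 33.3%, 48.5% and 22.09%.

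Each scaling multiplies whole libraries and so moves znf706 and the median gene nearly alike. For the stage difference in mutants, the median of all tested genes was 0.32 in the deposited values, -0.0028 with median-of-ratios scaling and 0.67 at the same sum. The distance of znf706 from that median therefore changes little by construction, and is given for the deposited values alone. It was -0.45 for the genotype difference at stage I and -0.22 at stage II, and -0.80 and -0.59 for the stage differences in WT and mutants. Relative to the median gene, znf706 was lower at stage II than at stage I in both genotypes, a description with no test of its own.

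Among zinc finger genes with a znf symbol and number, znf706 was the most abundant in 7 of 8 libraries. The table has 342 such genes, of which 94 to 108 reached 1 FPKM in a library. In those, the median was 7.06 to 9.64 FPKM. The transcript made up 11.5% and 12.1% of the summed FPKM of all znf genes in WT stage I libraries, 9.87% and 8.22% in mutant stage I, 7.27% and 6.54% in WT stage II, and 6.02% and 6.62% in mutant stage II libraries. The next in mean level was znf593, whose yeast homologue takes part in the export of ribosomal subunits. It stood at 156 and 162 FPKM in WT stage I and at 168 and 145 FPKM in mutant stage I libraries. The gap between znf706 and znf593 was therefore widest in WT stage I oocytes.

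The exception was mutant stage II replicate 1, where znf395a held 130.4 FPKM and znf706 128.8 FPKM. In the other mutant stage II library they held 124 and 142 FPKM. Unlike znf706, znf395a rose in mutants at both stages, from 84.9 ± 1.92 to 122 ± 5.64 FPKM at stage I (log2 fold change 0.52 ± 0.08, limma adjusted p = 0.0012) and from 96.4 ± 7.67 to 127 ± 4.82 FPKM at stage II (0.40 ± 0.08, adjusted p = 0.0048). The next znf genes, znf277 and znf326, stayed between 56.6 and 94.6 FPKM in all libraries. Of the 341 other znf genes, 115 passed the filter on low values. At stage I 37 of these (32.2%) were lower and 18 (15.7%) higher, beside 26.9% and 18.4% of all tested genes. The median was -0.07 in these znf genes and -0.08 in all tested genes. A lower log2 difference than that of znf706 was found for 33 of the 115, beside 20.1% of all tested genes. At stage II 26 of them (22.6%) were lower and 29 (25.2%) higher, beside 19.2% and 25.4%, with a median of 0.04, against 0.07 in all tested genes.

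**Figure D3:**
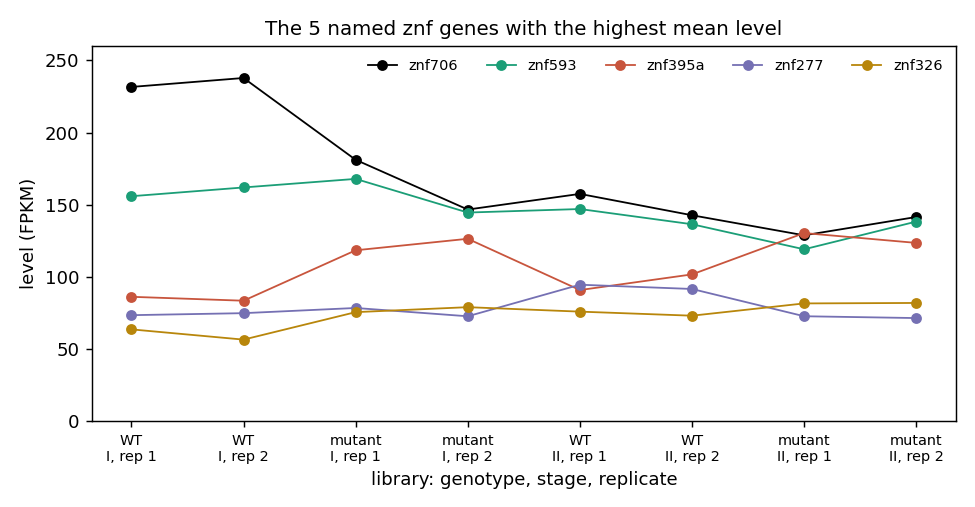
FPKM (vertical axis) of the 5 named znf genes with the highest mean level in each of the 8 libraries, with lines that only join the points of a gene. The black points of znf706 stand alone at 232 and 238 FPKM in WT stage I oocytes and meet those of znf395a at about the same level in mutant stage II replicate 1.

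Genes at the same mean level had varied patterns. By mean log2 value over the 8 libraries, znf706 was number 703 of the tested genes. Directly above it were hnrnpc, which binds pre-mRNA, hypk, a partner of the enzyme that acetylates nascent proteins, and si:ch211-282b22.1, an uncharacterised gene. Directly below were sugt1, a chaperone partner, mibp, and lmnl3, an oocyte lamin. At stage I hypk held 180 and 199 FPKM in the WT pair and 189 and 182 FPKM in the mutant pair. For sugt1 the values were 200 and 179 FPKM and 195 and 174 FPKM, whereas mibp rose from 129 and 146 FPKM to 395 and 352 FPKM (log2 fold change 1.43 ± 0.10, limma adjusted p = 3.4e-05). The gene si:ch211-282b22.1 fell at stage I as znf706 did, from 258 and 259 FPKM to 186 and 153 FPKM (-0.61 ± 0.09, adjusted p = 0.0013). At stage II, unlike znf706, it rose from 103 and 107 FPKM to 172 and 167 FPKM (0.69 ± 0.09, adjusted p = 8.4e-04).

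A small set of genes followed znf706 closely through the 8 libraries. Likeness was measured as the root mean square difference between log2(FPKM + 1) profiles, each centred on its own mean over the 8 libraries. The spread of the znf706 profile itself was 0.312. Of 13861 other tested genes, 18 lay within 0.1 and 463 within 0.2, beside a median of 0.571. The 10 closest lay between 0.0727 and 0.0891 and were chosen for this pattern, so their values are given without a test.

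The closest was eef2kmt, which encodes a methyltransferase of a translation elongation factor. It held 40.9 and 39.5 FPKM in WT stage I, 28.7 and 25.3 FPKM in mutant stage I, 29.3 and 24.6 FPKM in WT stage II, and 20.8 and 22.4 FPKM in mutant stage II libraries. As with znf706, both WT stage I libraries stood above the other 6. The second was atp6v1f, a subunit gene of the vacuolar proton pump, with 168 and 190 FPKM in WT stage I and 153 and 123 FPKM in mutant stage I libraries. The third was zswim7, of homologous recombination, with 136 and 138 FPKM and 113 and 91.9 FPKM in the same libraries. Stage II libraries held 106 to 125 FPKM of atp6v1f and 87.8 to 95.4 FPKM of zswim7. In both, mutant stage I replicate 1 was the higher of the pair, as it was for znf706.

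The other 7 spanned a wide range of levels. The glutathione transferase gene gstp1 held 882 and 941 FPKM in WT stage I and 688 and 649 FPKM in mutant stage I libraries. At the low end, grhpra, for a glyoxylate and hydroxypyruvate reductase, held 15.7 and 18.7 FPKM and 13.2 and 11.1 FPKM. Between them were lyrm9 and cmc2, both for mitochondrial proteins, arpc4 of the actin-nucleating complex, the proteasome subunit gene psma2, and znf1174. The latter, the only other znf gene among the 10, held 93.3 and 94.5 FPKM in WT stage I and 70.0 and 53.6 FPKM in mutant stage I libraries. The measure compares 8 libraries that form 4 groups, so it mostly reflects the 4 group means.

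**Figure D4:**
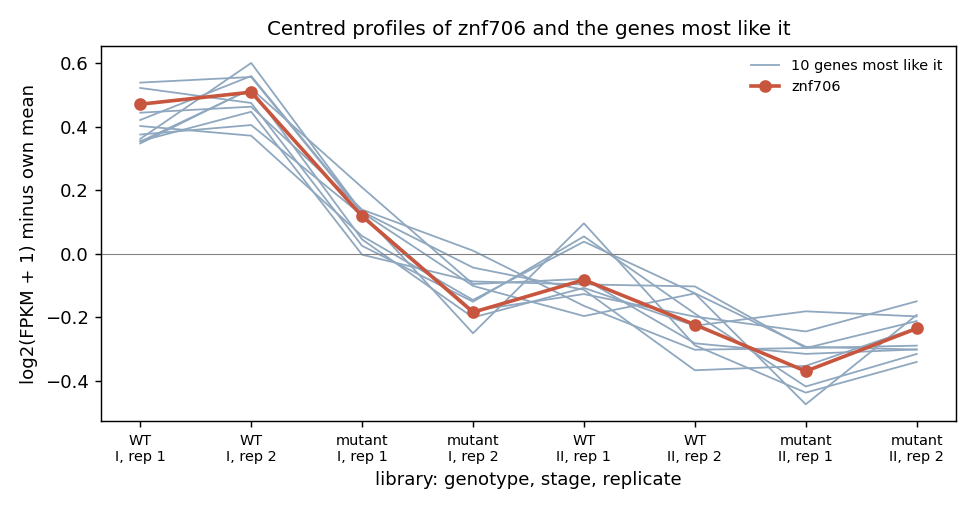
Log2(FPKM + 1) minus each gene's own mean (vertical axis) for znf706 in red and the 10 genes most like it in blue-grey, by library, with lines that only join the points of a gene. All 11 were highest in the WT stage I libraries. The 10 were chosen for this likeness.

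The zebrafish relative of the SERF genes, serf2 (ENSDARG00000074340), was at a similar level to znf706 and was also lower in mutants. It held 170 and 165 FPKM in WT stage I and 123 and 109 FPKM in mutant stage I libraries, without overlap. The log2 difference was -0.53 ± 0.09 (limma adjusted p = 0.0018). At this stage 26.9% of tested genes passed as lower and 42.3% had separate groups in that direction. At stage II the WT pair held 165 and 163 FPKM and the mutant pair 118 and 134 FPKM, a log2 difference of -0.38 ± 0.09 (adjusted p = 0.0088). There 19.2% of tested genes passed as lower. The stage II call was lost without mutant stage II replicate 1 (-0.29, adjusted p = 0.065). The WT libraries of serf2 were alike at both stages, whereas those of znf706 were not. A second entry, SERF2 (ENSDARG00000075881), stood at 0.624 to 4.36 FPKM, and the sources used here do not say how fragments were shared out between both entries.

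Genes next to znf706 on the chromosome were read from a RefSeq gene table of another zebrafish assembly, GRCz12tu, used for names and order alone. That table gives znf706 itself 4 transcripts, which the deposited values do not separate. On one side lies ywhaz, for a phosphoprotein-binding adaptor, which does not overlap it. The WT stage I libraries held 114.4 and 111.1 FPKM of it and both mutant stage I libraries 133 FPKM, where znf706 was lower. The rise was 0.24 ± 0.06 (limma adjusted p = 0.013) and was lost without WT stage I replicate 2 (0.21, adjusted p = 0.051) and with no trend in the prior (0.24, adjusted p = 0.058). At stage I 18.4% of tested genes passed as higher. At stage II ywhaz passed as higher too (0.17 ± 0.06, limma adjusted p = 0.043), as did 25.4% of tested genes. On the other side lie grhl2b, an epithelial transcription factor gene listed at 0 in all 8 libraries, and ncaldb, for a neuronal calcium sensor, at 0 in 6 libraries and at 0.0855 and 0.213 FPKM in mutant replicate 1 of stages I and II.

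Of the self-renewal genes listed for the role of the mouse ortholog, several were higher in the mutants, while klf4 was too low to test. It stood at 0.491 and 0.698 FPKM in WT stage I and at 0.453 and 0.643 FPKM in mutant stage I libraries, groups that overlap. Its stage II levels, also under 1 FPKM, did not overlap, with 0.183 and 0.0675 FPKM for the WT pair and the higher values of 0.341 and 0.272 FPKM for the mutant pair. The share of genes with separate groups in the higher direction is not given here. The 32.4% at this stage is for the lower direction and for genes that passed the filter on low values. It is thus no background for klf4, whose levels were not tested. This list has 22 genes in the table, and 14 of them were tested. At stage I 6 were higher and 0 lower, beside 18.4% and 26.9% of all tested genes. At stage II 6 were higher and 1 lower, beside 25.4% and 19.2%. Some of these calls lay near the floor. At stage I sox3 went from 0.412 and 0.290 FPKM to 1.59 and 1.29 FPKM. There klf2b, from 0 and 0.0183 FPKM to 0.270 and 0.415 FPKM, only just passed (limma adjusted p = 0.049). Counted again at stage II, sox3 went from 0 and 0.302 FPKM to 2.88 and 2.72 FPKM. It reached 1 FPKM in mutant libraries alone. When only genes with a mean of at least 5 FPKM were tested, 3 members passed at stage I and 4 at stage II. The homeobox gene nanog rose from 239 ± 8.93 to 374 ± 32.3 FPKM at stage I (0.64 ± 0.09, limma adjusted p = 7.8e-04). The RNA-binding gene lin28a rose from 37.6 and 30.6 FPKM to 73.7 and 79.4 FPKM at stage I (1.15 ± 0.12, adjusted p = 2.7e-04) and from 12.1 ± 1.58 to 64.8 ± 4.17 FPKM at stage II (2.33 ± 0.12, adjusted p = 1.0e-05). At stage II nanog rose from 215 ± 12.3 to 270.2 ± 17.6 FPKM (0.32 ± 0.09, adjusted p = 0.018), a call lost without WT stage II replicate 1 (0.27, adjusted p = 0.10) or mutant stage II replicate 1 (0.26, adjusted p = 0.12) and after median-of-ratios scaling (0.20, adjusted p = 0.17).

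Germ plasm genes, named in the title of the study, were more often higher than lower in mutants at stage I, where znf706 was lower. Of 25 tested entries of that list, 12 were higher and 1 lower at stage I, beside 18.4% and 26.9% of all tested genes, and 12 higher and 6 lower at stage II, beside 25.4% and 19.2%. These are entries and not distinct genes, as hook2 and kif5ba each had a second entry. Both hook2 entries are among the 12 at each stage. The gene pou5f3 is in this list and in the self-renewal list. It is counted as higher at stage II in each (1.43 ± 0.16, limma adjusted p = 3.6e-04). A kif5ba entry with means of 1.98 FPKM in WT and 1.18 FPKM in mutants is among the 6. Median log2 differences were 0.29 and 0.13, against -0.08 and 0.07 in all tested genes. The germ plasm list, like the self-renewal list, was chosen with earlier results of these data known, so its shares and medians are a description. The only member that passed the threshold as lower at stage I, as znf706 did, was ddx4, the vasa helicase gene. It went from 93.0 and 68.8 FPKM to 48.5 and 50.4 FPKM (-0.68 ± 0.13, limma adjusted p = 0.0035). Others, such as buc (-0.17, adjusted p = 0.18), had negative differences that did not pass. The translational regulator gene nanos3 rose at both stages, from 77.8 and 79.8 FPKM to 352 and 337 FPKM at stage I (2.11 ± 0.06, adjusted p = 4.5e-07) and from 44.0 and 41.4 FPKM to 146 and 145 FPKM at stage II (1.75 ± 0.06, adjusted p = 1.4e-06). The scaffold gene grip2a was at 26.2 ± 1.16 and 38.8 ± 7.97 FPKM at stage I (0.54 ± 0.13, adjusted p = 0.013) and 25.8 ± 1.03 and 15.9 ± 0.248 FPKM at stage II (-0.67 ± 0.13, adjusted p = 0.0052). Its stage I call was lost without WT replicate 1 (0.49, adjusted p = 0.068) or mutant replicate 2 (0.33, adjusted p = 0.057). The Tudor gene tdrd5 was at 20.5 ± 1.22 and 24.4 ± 0.887 FPKM at stage I (0.24 ± 0.09, adjusted p = 0.064) and fell from 46.5 ± 0.551 to 5.39 ± 0.164 FPKM at stage II (-2.89 ± 0.09, adjusted p = 6.9e-07).

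**Figure D5:**
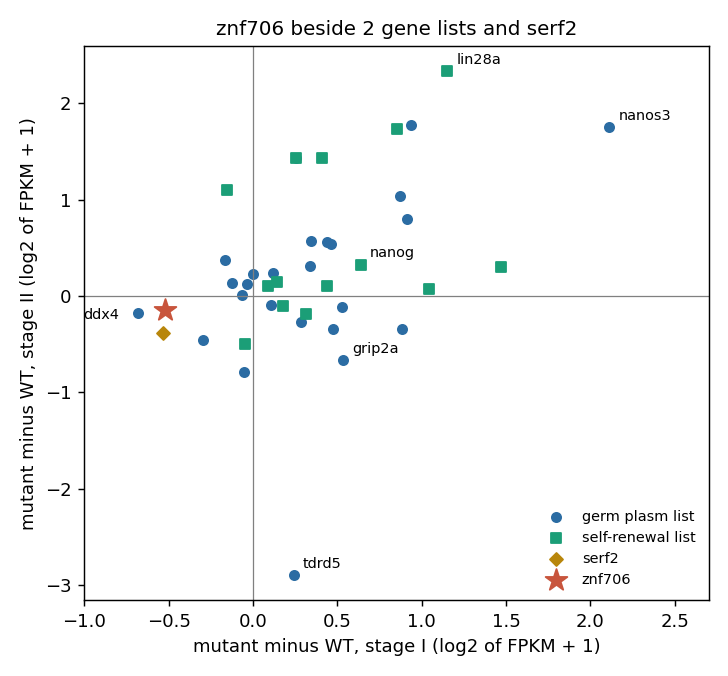
Mutant minus WT on the log2(FPKM + 1) scale at stage I (horizontal axis) and stage II (vertical axis) for znf706, serf2 and the tested members of the germ plasm and self-renewal lists, as 1 point per entry. The gene pou5f3, a member of both lists, is drawn for each. At stage I znf706 (-0.52) stands beside serf2 (-0.53) and ddx4 (-0.68), left of nearly all other points.

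Oocyte markers were abundant in all libraries, but their levels too differed between genotypes. Summed FPKM of the 10 markers was 5751 and 6514 in WT stage I and 6663 and 6887 in mutant stage I libraries, and 5554 and 5717 in WT stage II and 4290 and 4451 in mutant stage II libraries. All 10 reached 1 FPKM in both libraries of each mutant group and 9 in those of each WT group. The meiotic gene sycp3 stood at 0.110 and 0.388 FPKM in WT stage I and at 8.24 and 8.01 FPKM in mutant stage I libraries. The oocyte transcription factor gene figla stood at 15.6 and 14.4 FPKM and at 121 and 103 FPKM in the same libraries. Both passed the threshold as higher at stage I (limma adjusted p = 9.9e-05 and adjusted p = 2.4e-06), as did 18.4% of all tested genes. In WT, sycp3 reached 1 FPKM in stage II replicate 1 alone (1.59 FPKM). It therefore passed the filter on low values only through the mutant libraries, where it was high. Of the other markers, zp2.1 and org also passed as higher at stage I and ddx4 as lower (-0.68, adjusted p = 0.0035). At stage II sycp3, figla, gdf9 and buc passed as higher, and zp2.1, zp3b and org as lower, beside 25.4% and 19.2% of all tested genes.

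The summed levels of the granulosa and theca, leukocyte and blood marker lists also differed between genotypes. The granulosa and theca list summed to 254 and 274 FPKM in WT stage I, 102 and 108 FPKM in mutant stage I, 95.1 and 123 FPKM in WT stage II, and 335 and 354 FPKM in mutant stage II libraries. Nearly all of it was cyp11a1 and cyp17a1, genes of steroid synthesis, which went opposite ways at stage I. There cyp11a1 held 221 and 203 FPKM in the WT pair and 0.153 and 0.0626 FPKM in the mutant pair, and cyp17a1 held 47.9 and 47.6 FPKM and 96.2 and 105 FPKM. At stage II both were higher in mutants, where cyp11a1 held 278 and 261 FPKM, against 53.5 and 82.4 FPKM in WT. Less abundant members followed them only in part. At stage II gsdf fell from 5.41 and 4.39 FPKM to 0.839 and 2.79 FPKM (-1.15 ± 0.35, limma adjusted p = 0.031). The difference of foxl2b did not pass there (0.26, adjusted p = 0.28). At stage I foxl2b, like cyp11a1, was lower in mutants (-0.60, limma adjusted p = 0.030), and gsdf did not pass (0.57, adjusted p = 0.23). Of the 11 markers 2 to 4 reached 1 FPKM in both libraries of a group, fshr was listed at 0 in all libraries, and cyp19a1a and foxl2a stood at 1.03 FPKM or less.

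Leukocyte markers summed to 28.0 to 30.3 FPKM in WT and 37.1 to 44.7 FPKM in mutant libraries. Most of the sum was rac2, at 26.7 FPKM in WT and 26.2 FPKM in mutant stage I oocytes on average, while the difference at stage I lay mainly in cd74a, with 0.861 and 1.00 FPKM for the WT pair and 5.95 and 4.77 FPKM for the mutant pair, and in cd74b, with means of 1.096 and 4.29 FPKM. At stage II the difference was spread over more genes, with WT and mutant means of 0.476 and 3.53 FPKM for coro1a and 0.360 and 2.28 FPKM for cd74a. There cd4-1 had means of 0.0993 and 2.23 FPKM. Both coro1a and cd4-1 reached 1 FPKM only in mutant libraries. The means of rac2, 26.6 and 30.0 FPKM, did not differ by the test (limma adjusted p = 0.17). Of the 10 leukocyte markers, 1 to 5 reached 1 FPKM in both libraries of a group, and mpeg1.1 was listed at 0 in all libraries. Blood markers summed to 0.623 to 6.26 FPKM and stroma markers to 9.40 to 14.0 FPKM. What part these have in the level of znf706 was not tested.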

How the data were processed

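The submitters' processing notes name Trim Galore, STAR 2.5.3a, Cufflinks 2.2.1 and the genome build danRer11. The authors deposited FPKM per gene in 1 merged table. The gene annotation release and strand setting are not given in the sources used here. Absolute depth is unknown, since FPKM hide it. The commonest ratio of values under 0.05 FPKM put the libraries at 0.900 to 1.07 times WT stage I replicate 1, sought only near equal depth. Summed FPKM ran from 653659 to 899582 per library.

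Of 32197 entries (32055 gene IDs), 24 repeated another exactly and were dropped, as were 103 gene IDs whose entries disagreed. The test covered the 13862 genes that reached 1 FPKM in 2 or more libraries, on log2(FPKM + 1), in R 4.3.3 with limma 3.58.1: 4 group means, a trend in the prior, and Benjamini-Hochberg adjusted p under 0.05 as a call. All 8 libraries entered the fit and share 1 estimate of the spread.

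Genes named are znf706, the 10 genes nearest in profile, 3 tested genes on each side in level, the 5 highest znf genes, chromosomal neighbours, and members of fixed lists. The members and lists were chosen with earlier results of these data known. SERF2 was looked up after values were seen. Alternatives were other pseudocounts, filters, scalings and priors, the replicate number as a block, only the libraries of a contrast, and leaving out each library. Same-numbered libraries did not deviate together: the 6 correlations of replicate differences between groups were -0.0412 to 0.0645.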

Additional observations from a re-analysis of the deposited data

Results flagged for a closer look

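None of the contrasts of znf706 itself met a rule for a closer look, as its interaction missed the threshold. The rule was applied to a chosen set of the other genes described above, not to all of them. In 5 of this set the genotype effect differed between the stages by limma's interaction term, given as the effect at stage II minus that at stage I. It was -3.13 for tdrd5 (adjusted p = 3.3e-06), 1.30 for si:ch211-282b22.1 (adjusted p = 3.2e-04), -1.20 for grip2a (adjusted p = 0.0024), 1.18 for lin28a (adjusted p = 0.0021) and -0.37 for nanos3 (adjusted p = 0.016). Beside them, 36.4% of all tested genes passed this test. Genes described above but outside the chosen set passed it too, among them cyp11a1 (9.59, adjusted p = 2.7e-07) and mibp (-0.93, adjusted p = 0.0024). The value for nanos3 did not pass without either mutant stage II library (-0.37, adjusted p = 0.052, and -0.36, adjusted p = 0.057).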

How the results depend on the processing

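The calls of znf706 at stage I and between stages in WT kept their direction and their side of the threshold under all alternatives, and the difference at stage II passed under none. With the replicate number as a block, the stage I difference was -0.52 (adjusted p = 0.0082) and no call of znf706 changed. The pairing of numbers rests on nothing in the labels. The interaction passed after rescaling to the same sum (0.44, adjusted p = 0.038) and was 0.17 (adjusted p = 0.48) with median-of-ratios scaling. The stage difference in mutants passed when genes with a mean under 5 FPKM were left out (-0.27, adjusted p = 0.046), with a robust prior (-0.27, adjusted p = 0.045) and under median-of-ratios scaling (-0.68), and turned to 0.11 at the same sum. Mutant stage I against WT stage II was 0.41 (adjusted p = 0.022) with median-of-ratios scaling and passed, as it did without mutant stage I replicate 2 (0.27, adjusted p = 0.047), and turned to -0.0072 after quantile normalization and to -0.17 at the same sum. Leaving out 1 library gave ranges of -0.67 to -0.37 for the stage I difference, -0.22 to -0.08 at stage II, -0.71 to -0.57 for stage in WT, -0.42 to -0.12 for stage in mutants, 0.22 to 0.52 for the interaction, and -0.032 to 0.27 for mutant stage I against WT stage II. The value of -0.032 came without mutant stage I replicate 1. Of the 10 genes most like znf706, 4 were also among the 10 with the highest Pearson correlation, and 10 after median-of-ratios scaling. The interaction of nanos3 turned to 0.054 after quantile normalization. The difference of tdrd5 at stage I passed under 3 alternatives (0.24 to 0.34). Counts of called genes in the 6 contrasts stayed within 1.5 times of those given. FPKM without counts give no depth, so no counting error could be attached to a level.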

Other observations

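By Pearson correlation instead of distance, the gene whose profile was most like that of znf706 was med31, a subunit gene of the Mediator complex, with r = 0.993 over the 8 libraries, which form 4 groups and are not 8 independent conditions. It held 164 and 160 FPKM in WT stage I, 141 and 129 FPKM in mutant stage I, 131 and 126 FPKM in WT stage II, and 118 and 123 FPKM in mutant stage II libraries. The nucleosome-binding gene hmgn2 had r = 0.985 with a much wider range, from 43.5 and 50.5 FPKM in WT stage I to 10.6 and 12.7 FPKM in mutant stage II libraries. Both were chosen for this likeness.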
